A study of Mus musculus with 6 samples.

Results

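The comparison was between mouse mesoderm progenitor cells exposed to BMP4 for 11 h and cells exposed to BMP4 for 5 h, read in 2 of the 6 total RNA libraries of the series. Both libraries were chosen by their labels. Progenitors came from C57BL/6 embryos and grew in medium with serum on mouse embryonic fibroblasts whose division had been stopped with mitomycin C. Recombinant human BMP4 was added after 96 h of this culture, and the culture times on the labels are 101 h and 107 h. The other 4 libraries were untreated cells at 0 h, untreated cells at 96 h, BMP4 with recombinant human FGF8 for 5 h, and BMP4 with recombinant human FGF4 for 11 h. Each condition had 1 library, and no untreated library was labelled 101 h or 107 h, so BMP4 and culture time cannot be told apart. The feeder cells were mouse cells, and their RNA cannot be told apart from that of the progenitors by sequence.

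BMP4 is a secreted ligand that acts through SMAD proteins and raises genes such as Id and Msx family members and the feedback inhibitors Smad6 and Smad7. In the embryo, BMP signalling patterns mesoderm from dorsal to ventral and is needed for blood, vessel and lateral plate tissues. Tailbud mesoderm progenitors are held in an undifferentiated state by WNT and FGF signals and the Cdx and T transcription factors, and they leave it as presomitic or other mesoderm.

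Total counts were 218825816 at BMP4 5 h and 179196459 at BMP4 11 h, where 3 counts correspond to 0.0137 and 0.0167 CPM (counts scaled to effective library size). A total of 14258 genes had a securely assigned value in both libraries and at least 1 CPM in at least 1 of the 6 libraries. A gene is said to be called where its log2 ratio, taken after adding 0.5 CPM to both libraries, was at least 2-fold and the exact 95% counting interval of the plain ratio excluded 1. The interval removed no gene, so the fold alone set the calls. With 1 library a side no ratio has a p-value. Every interval given is a Clopper-Pearson interval that covers counting error only and takes each count as independent. The BMP4 5 h library lay close to the untreated 0 h library, although it is labelled 101 h in culture. Against 0 h it had 66 genes higher (0.463% of those analysed) and 18 lower (0.126%), while against 96 h it had 337 higher (2.36%) and 487 lower (3.42%). The other 5 h library, BMP4 with FGF8, also lay close to 0 h, with 51 genes higher (0.358%) and 8 lower (0.0561%), and whether the culture times on these labels are right was not settled. Xist, the RNA of the inactive X chromosome, was at 211 CPM at BMP4 5 h and 114 CPM at BMP4 11 h. It was at 124 CPM at 0 h and 79.7 CPM at 96 h. With FGF8 at 5 h it was at 205 CPM, and with FGF4 at 11 h at 208 CPM. From BMP4 5 h to BMP4 11 h the Y-linked genes Ddx3y, Eif2s3y, Kdm5d and Uty went the other way. They were 1.45-fold, 1.46-fold, 1.27-fold and 1.23-fold higher at BMP4 11 h. None of these 5 genes was called, and their part in the other differences was not tested.

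At 11 h of BMP4, 395 genes (2.77% of 14258) were at least 2-fold higher than at 5 h and 53 genes (0.372%) were at least 2-fold lower. Genes that were higher included those of red blood cells, lateral plate, heart and vessels. Genes that were lower included those of the tailbud, the presomitic mesoderm and the posterior Hox clusters. A further set, with Atf3, Klf4 and Trp53cor1 among its members, was higher at 11 h than in every other library without FGF. The median log2 ratio over all genes was -0.01.

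**Figure D1:**
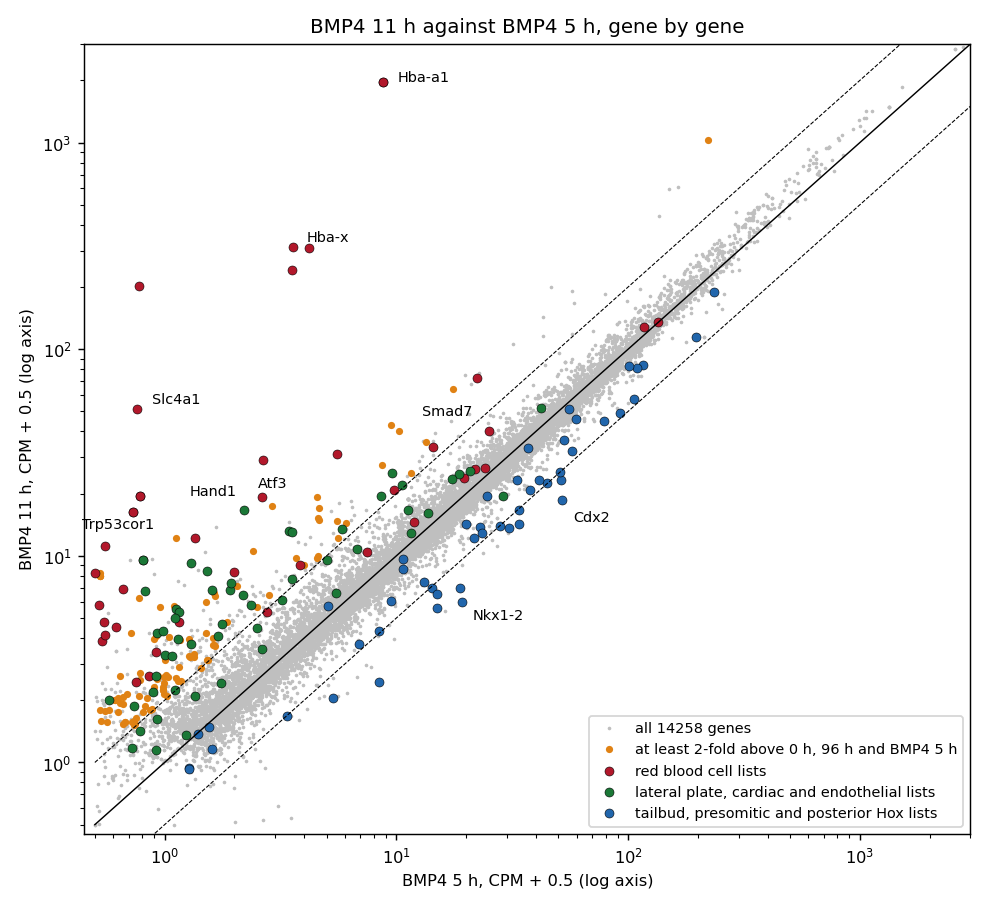
Each point is a gene, with CPM plus 0.5 at BMP4 5 h on the x axis and at BMP4 11 h on the y axis, both on log axes, and dashed lines at 2-fold. Red blood cell genes (red) include Hba-a1, at 8.25 CPM at 5 h and 1961 CPM at 11 h, while tailbud, presomitic and posterior Hox genes (blue) have 8 of 20, 4 of 19 and 3 of 10 genes past the lower dashed line.

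Globins, the oxygen carriers of red blood cells, were higher at 11 h for 10 of the 10 genes analysed, with a median log2 ratio of 6.15. Hba-x, the embryonic zeta globin (chromosome 11, 32276600 to 32278116), was at 1.8 CPM at 0 h, 309 CPM at 96 h, 3.06 CPM at BMP4 5 h, 311 CPM at BMP4 11 h, 18.7 CPM with FGF8 at 5 h and 242 CPM with FGF4 at 11 h. The 3 libraries at 96 h or 11 h were high and the 3 at 0 h or 5 h were low, with no overlap between them. From 5 h to 11 h Hba-x was 102-fold higher (94.1 to 109.7). Hbb-bh1, an embryonic beta-like globin on chromosome 7, was at 3.06 CPM at 5 h and 242 CPM at 11 h, 79.0-fold higher (73.2 to 85.4). Hbb-y, its neighbour in the same cluster, was at 3.70 and 309 CPM, 83.5-fold higher (77.9 to 89.6). Adult-type alpha globin Hba-a1 was at 8.25 CPM at 5 h and 1961 CPM at 11 h, 238-fold higher (227 to 249). Its near-identical copy Hba-a2 carried almost the same counts, as did the Hbb-bs and Hbb-b1 names and the Hbb-bt and Hbb-b2 names, so the copies cannot be told apart. The 10 globin names are therefore not 10 separate measurements. Hbq1b, a theta globin, had the largest fold, from 0.272 to 202 CPM, 743-fold higher (577 to 973). It was at 5.53 CPM with FGF8 at 5 h and only 26.8 CPM with FGF4 at 11 h. In bulk RNA, more cells of a type and more RNA per cell cannot be told apart.

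Band 3 and the red cell skeleton were higher along with the globins, in 10 of 13 membrane and surface genes, with a median log2 ratio of 2.85. Slc4a1, the band 3 anion exchanger of the red cell membrane (chromosome 11, 102348820 to 102365281), was at 0.0457 CPM at 0 h, 73.9 CPM at 96 h, 0.263 CPM at BMP4 5 h, 50.8 CPM at BMP4 11 h, 1.45 CPM with FGF8 at 5 h and 50.2 CPM with FGF4 at 11 h. It was 194-fold higher at 11 h than at 5 h (150 to 255). Ank1, which ties the membrane to the spectrin network, was at 0.847 and 11.8 CPM, 13.9-fold higher (11.9 to 16.2). The spectrin gene Sptb had a log2 ratio of 2.87.

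Haem synthesis genes and erythroid regulators were higher in 13 of 19 genes, with a median log2 ratio of 1.71. Alas2, the first enzyme of haem synthesis in red cells (chromosome X, 150547417 to 150570622), was at 2.31 CPM at 0 h, 40.8 CPM at 96 h, 2.15 CPM at BMP4 5 h, 28.7 CPM at BMP4 11 h, 2.73 CPM with FGF8 at 5 h and 25.2 CPM with FGF4 at 11 h. That was 13.3-fold higher at 11 h of BMP4 than at 5 h (12.1 to 14.7). Among the transcription factors of the lineage, Gata1 was at 0.0543 CPM at 5 h and 3.64 CPM at 11 h, 67.0-fold higher (38.1 to 130.3). Klf1, which drives adult globin genes, was at 0.118 and 4.01 CPM, 34.1-fold higher (23.0 to 52.5). Tal1, a factor shared by blood and vessel precursors, had a log2 ratio of 3.56. Hemgn, a nuclear protein of blood cells, had no count at 5 h and 7.71 CPM at 11 h, at least 568-fold above the floor of 3 counts in the 5 h library.

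Promoter windows of 4 of these genes are shown because Gata1, the factor that binds GATA words, was among the regulators that were higher. Each is the 250 bases before the start of transcription of the RefSeq gene on its own strand, in build GRCm38.p6, with GATA words in capitals. The words searched on both strands were AGATAA and the variant TGATAA, and the forms with a last G, which are AGATAG and the variant TGATAG.
Hba-x (chr11:32276350-32276599, plus strand): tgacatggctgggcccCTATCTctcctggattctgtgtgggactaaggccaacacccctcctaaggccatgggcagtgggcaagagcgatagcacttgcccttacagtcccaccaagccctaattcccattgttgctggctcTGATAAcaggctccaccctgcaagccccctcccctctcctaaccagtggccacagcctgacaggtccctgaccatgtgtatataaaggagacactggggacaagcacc
Hba-a1 (chr11:32283422-32283671, plus strand): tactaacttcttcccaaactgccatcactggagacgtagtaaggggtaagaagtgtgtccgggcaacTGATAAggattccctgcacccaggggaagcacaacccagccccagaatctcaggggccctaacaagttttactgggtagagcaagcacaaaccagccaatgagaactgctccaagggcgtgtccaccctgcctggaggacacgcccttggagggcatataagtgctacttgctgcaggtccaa
Alas2 (chrX:150547167-150547416, plus strand): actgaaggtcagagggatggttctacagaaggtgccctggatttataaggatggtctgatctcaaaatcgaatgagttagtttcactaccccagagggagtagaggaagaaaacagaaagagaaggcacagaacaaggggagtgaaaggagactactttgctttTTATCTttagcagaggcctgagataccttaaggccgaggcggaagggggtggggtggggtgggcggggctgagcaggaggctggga
Klf1 (chr8:84901732-84901981, plus strand): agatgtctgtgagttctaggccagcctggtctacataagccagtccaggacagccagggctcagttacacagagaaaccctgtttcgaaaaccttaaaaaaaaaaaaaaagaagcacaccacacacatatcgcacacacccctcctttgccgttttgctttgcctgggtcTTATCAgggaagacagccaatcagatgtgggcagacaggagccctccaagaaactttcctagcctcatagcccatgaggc

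The GATA words began 234 and 108 bases before the start in Hba-x, 183 bases before it in Hba-a1, 86 bases before it in Alas2 and 80 bases before it in Klf1. Of the 33 red cell genes called higher across the 3 lists, 20 had a promoter window in the RefSeq table, and 15 of these 20 (75%) held at least 1 of the words. The words were present for 19.9% of the 10361 analysed genes with a window and in 26.5% of all 32851 windows of this length. A match describes the letters of the window and is not evidence of binding.

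**Figure D2:**
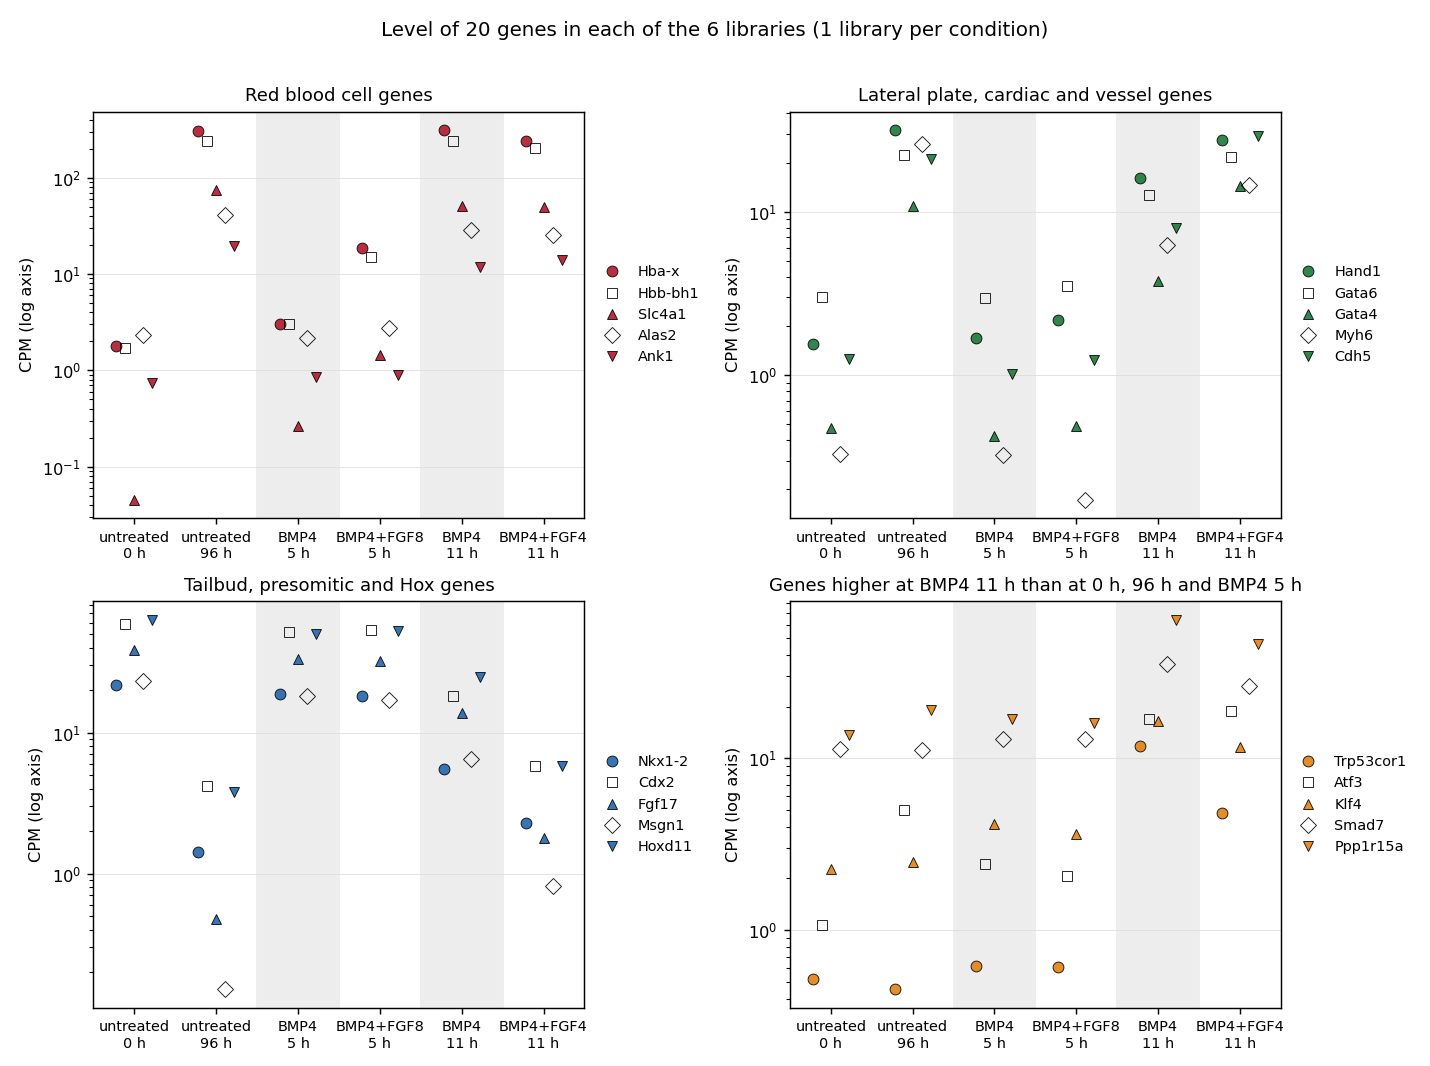
Each panel gives the CPM (log axis) of 5 genes in the 6 libraries, with grey bands behind BMP4 5 h and BMP4 11 h. Red blood cell, lateral plate, cardiac and vessel genes lie higher and tailbud genes lower at BMP4 11 h than at BMP4 5 h, with Hba-x at 311 against 3.06 CPM and Cdx2 at 18.1 against 51.5 CPM, and the genes of the last panel are highest in both libraries labelled 11 h.

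Lateral plate mesoderm genes, which mark the tissue of the body wall, gut wall and heart, were higher in 10 of 18 genes analysed, with a median log2 ratio of 1.11 and all 18 ratios above 0. Hand1, a factor of lateral plate and heart (chromosome 11), was at 1.56 CPM at 0 h, 31.5 CPM at 96 h, 1.70 CPM at BMP4 5 h, 16.1 CPM at BMP4 11 h, 2.17 CPM with FGF8 at 5 h and 27.4 CPM with FGF4 at 11 h. It was 9.51-fold higher at 11 h of BMP4 than at 5 h (8.54 to 10.6), at a level between BMP4 5 h and untreated 96 h. Gata6, an early factor of heart and gut mesoderm, was at 2.95 CPM at 5 h and 12.7 CPM at 11 h, 4.31-fold higher (3.95 to 4.71). Gata4, its relative, was at 0.426 and 3.74 CPM, 8.80-fold higher (7.07 to 11). The WNT ligand Wnt2, made by heart-forming and lung mesoderm, had a log2 ratio of 2.82.

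Sarcomere genes of heart and striated muscle were higher in 8 of 14 genes, with a median log2 ratio of 1.26. Myh6, the alpha myosin heavy chain of heart muscle, was at 0.326 CPM at BMP4 5 h, 6.23 CPM at BMP4 11 h and 25.9 CPM at 96 h. From 5 h to 11 h it was 19.1-fold higher (15 to 24.6). Myl7 and Tnnt2, a myosin light chain and a troponin of the early heart, had log2 ratios of 2.30 and 2.13. Of 9 skeletal muscle genes 3 were higher, among them the myogenic factor Myf5 with a log2 ratio of 1.42, and the third of them, Actc1, also stands in the sarcomere list.

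Vessel genes were higher in 15 of 22 genes, with a median log2 ratio of 1.32 and 21 of the 22 ratios above 0. The exception was Lmo2, at 28.4 CPM at BMP4 5 h and 19.1 CPM at BMP4 11 h, which was not called. Cdh5, the cadherin of endothelial junctions, was at 1.25 CPM at 0 h, 21.1 CPM at 96 h, 1.02 CPM at BMP4 5 h, 7.97 CPM at BMP4 11 h, 1.25 CPM with FGF8 at 5 h and 29.0 CPM with FGF4 at 11 h. It was 7.83-fold higher at 11 h of BMP4 than at 5 h (6.79 to 9.06). Kdr, the VEGF receptor of vessel precursors, was at 3.06 CPM at 5 h and 12.5 CPM at 11 h, 4.1-fold higher (3.76 to 4.48). With FGF4 at 11 h it was at 39.0 CPM, above both BMP4 11 h and the 26.5 CPM of untreated 96 h.

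Tailbud and axial progenitor genes were lower in 8 of 20 genes analysed, with a median log2 ratio of -0.85, and 1 of the 20 ratios was above 0. The summed level of the list, a check of the labelled cell type, was 1133 CPM at 0 h, 347 CPM at 96 h, 1058 CPM at BMP4 5 h, 652 CPM at BMP4 11 h, 1028 CPM with FGF8 at 5 h and 378 CPM with FGF4 at 11 h. Nkx1-2, a homeobox gene of axial progenitors (chromosome 7, 132596239 to 132599637), was at 21.7 CPM at 0 h, 1.42 CPM at 96 h, 18.6 CPM at BMP4 5 h, 5.5 CPM at BMP4 11 h, 18.2 CPM with FGF8 at 5 h and 2.28 CPM with FGF4 at 11 h. It was 3.38-fold lower at 11 h of BMP4 than at 5 h (3.15 to 3.64). Cdx2, a caudal factor that sets posterior identity (chromosome 5, 147300900 to 147307249), was at 58.4 CPM at 0 h, 4.17 CPM at 96 h, 51.5 CPM at BMP4 5 h, 18.1 CPM at BMP4 11 h, 53.7 CPM with FGF8 at 5 h and 5.75 CPM with FGF4 at 11 h. It was 2.84-fold lower at 11 h of BMP4 than at 5 h (2.73 to 2.96). For both genes the BMP4 11 h library stood alone between 3 high libraries and 2 low ones. The signals of the tailbud followed, with Fgf17 at 33.3 and 13.8 CPM, Fgf8 at 13.8 and 6.47 CPM, and Wnt3a at 14.4 and 6.05 CPM at 5 h and 11 h. T (Brachyury), the T-box factor of the streak and tailbud, was at 77.9 CPM at 5 h and 44.5 CPM at 11 h, 1.75-fold lower (1.70 to 1.8) and not called.

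Presomitic mesoderm genes, which mark the tissue that forms somites, were lower in 4 of 19 genes, with a median log2 ratio of -0.81 and no ratio above 0. Msgn1, a factor of presomitic fate (chromosome 12, 11208382 to 11208948), was at 23.2 CPM at 0 h, 0.151 CPM at 96 h, 18.2 CPM at BMP4 5 h, 6.45 CPM at BMP4 11 h, 17.1 CPM with FGF8 at 5 h and 0.820 CPM with FGF4 at 11 h. It was 2.8-fold lower at 11 h of BMP4 than at 5 h (2.64 to 3.03). Ripply2, Pcdh8 and Mesp2, which act at the forming somite border, were the other 3 called, with log2 ratios of -1.38, -1.02 and -1.01. Tbx6, the T-box factor that commits cells to this tissue, was at 37.3 CPM at 5 h and 20.4 CPM at 11 h and was not called.

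Hox genes of the posterior groups were lower in 3 of 10 genes, with a median log2 ratio of -0.72 and no ratio above 0. Hoxd12 was at 7.91 CPM at 5 h and 1.94 CPM at 11 h, 4.07-fold lower (3.62 to 4.60). Hoxd11 was at 50.4 and 24.9 CPM and Hoxa11 had a log2 ratio of -1.0, both at the edge of the 2-fold threshold. The antisense RNA Hoxa11os was also lower, with a log2 ratio of -1.22, and whether reads were counted by strand is not given in the sources used here. Trunk Hox genes, groups 6 to 9, had 0 of 12 called and a median log2 ratio of -0.06, while between the 5 h and 11 h libraries with FGF 4 of 12 were lower, with a median of -0.99. The kidney and intermediate mesoderm factor Pax8 was 3.34-fold lower (2.93 to 3.81), the 1 gene called of 14 in that list.

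Of 14 genes analysed in the retinoic acid list 2 were lower, and both encode enzymes that break retinoic acid down. Cyp26b1 was at 6.83 CPM at 0 h, 3.24 CPM at 96 h, 15.8 CPM at BMP4 5 h, 4.90 CPM at BMP4 11 h, 11.8 CPM with FGF8 at 5 h and 4.04 CPM with FGF4 at 11 h. Both libraries labelled 5 h were above the 4 others. From 5 h to 11 h of BMP4 it was 3.22-fold lower (2.99 to 3.48). Cyp26a1, the family member of the tailbud, was at 30.2 and 13.1 CPM, 2.29-fold lower (2.19 to 2.41).

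**Figure D3:**
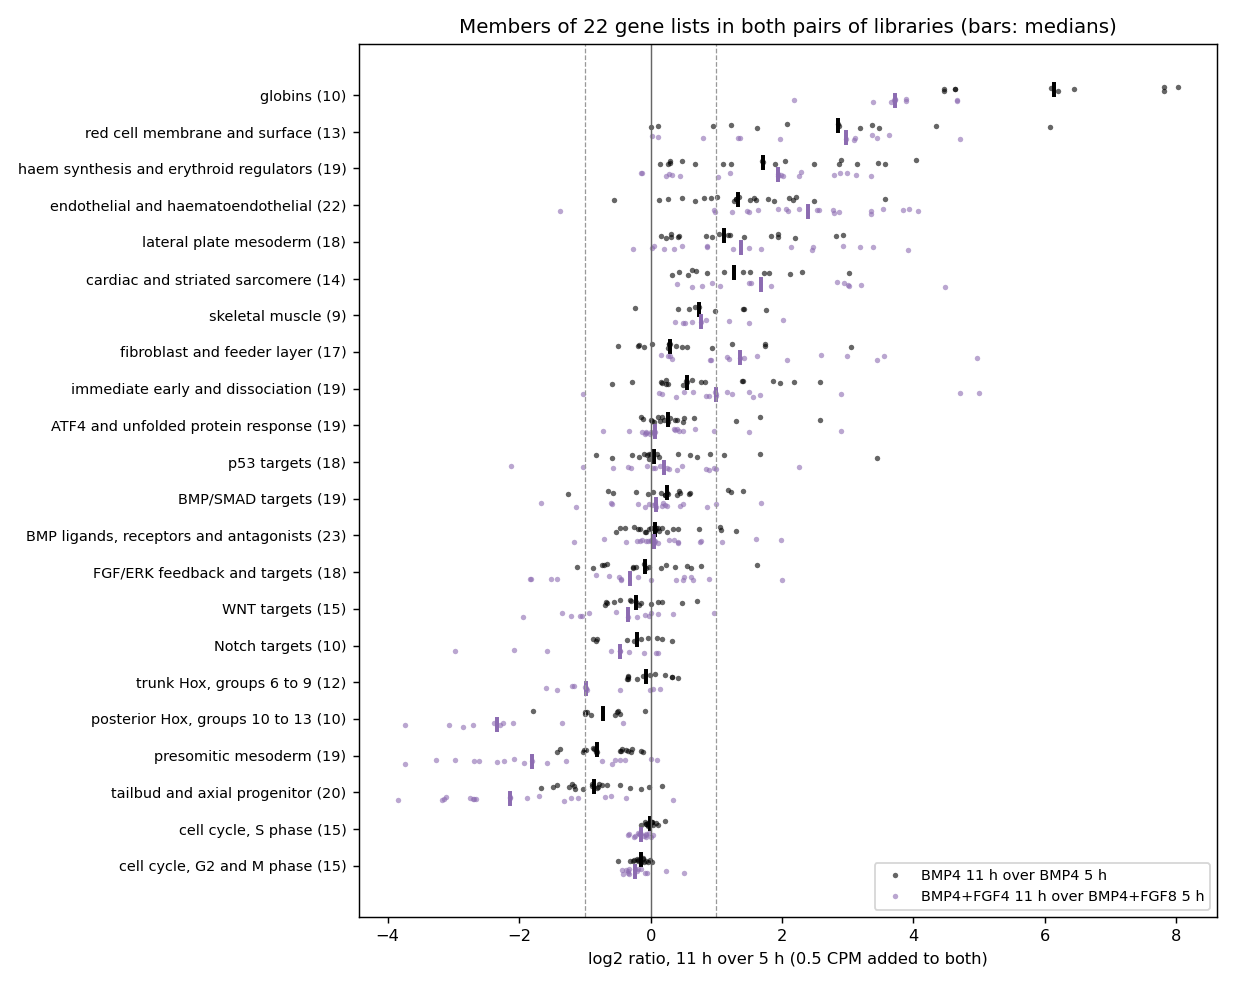
Each row is a gene list with the number of genes analysed, each point a member's log2 ratio of 11 h over 5 h, and each bar a median, in black for BMP4 and in purple for the libraries with FGF, with dashed lines at 2-fold. Globin, red cell, vessel, lateral plate and sarcomere medians lie to the right in both pairs, while tailbud, presomitic and posterior Hox medians lie to the left, at -0.85, -0.81 and -0.72 for BMP4.

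Of 19 BMP targets analysed 3 were higher and 1 was lower at 11 h than at 5 h of BMP4, with a median log2 ratio of 0.24. Smad7, which blocks BMP and TGF-beta receptors, was at 11.4 CPM at 0 h, 11.3 CPM at 96 h, 12.9 CPM at BMP4 5 h, 35.2 CPM at BMP4 11 h, 13 CPM with FGF8 at 5 h and 26.5 CPM with FGF4 at 11 h. The 2 libraries labelled 11 h were above the 4 others, and Smad7 was 2.73-fold higher at 11 h of BMP4 than at 5 h (2.61 to 2.85). Id4 was at 2.0 and 5.13 CPM, 2.56-fold higher (2.28 to 2.88), and Gata2, a blood and vessel factor in the same list, was at 1.40 and 3.97 CPM. The other inhibitors of differentiation were not called. Id1 was at 31.1 CPM at 0 h, 26.5 CPM at 96 h, 30.9 CPM at BMP4 5 h and 31.5 CPM at BMP4 11 h, a ratio of 1.02 (0.985 to 1.06). Id2 was 1.51-fold higher (1.48 to 1.55) and Id3 1.37-fold higher (1.33 to 1.41). Smad6, the BMP-specific feedback inhibitor, was at 11.3 and 13.3 CPM. Dlx5, a homeobox gene of bone and branchial arches, was the 1 target called lower, with a log2 ratio of -1.25.

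Among BMP ligands, receptors and antagonists 3 of 23 genes were higher. Bmp5, a ligand, was at 2.42 CPM at 5 h and 6.66 CPM at 11 h, 2.75-fold higher (2.48 to 3.06). Fst, which traps activin and BMP ligands, was at 12.1 and 26.1 CPM, 2.15-fold higher (2.05 to 2.26). The Bmp4 transcript of the mouse cells was at 18.1 and 24.4 CPM and was not called. The median log2 ratio of this list was 0.06, and it was -0.03 when libraries were scaled by their total counts.

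FGF targets had 1 of 18 genes higher and 1 lower, with a median log2 ratio of -0.09 and 7 ratios above 0. With at least 5 CPM required the median was -0.22. Between the 5 h and 11 h libraries with FGF, 1 of these genes was higher and 4 were lower. Spry4, a feedback inhibitor of FGF signalling, was at 25.3 CPM at 5 h and 11.4 CPM at 11 h, 2.23-fold lower (2.12 to 2.35). Ier3, an early response gene, was at 0.774 and 3.44 CPM, 4.44-fold higher (3.74 to 5.30). The FGF-driven ETS factor Etv4 was at 35.0 and 20.7 CPM and was not called. No gene was called in the WNT target list (15 genes), the Notch target list (10), both cell cycle lists (15 each), glycolysis and hypoxia (19) or cholesterol synthesis (17). Over all genes 2.77% were called higher and 0.372% lower, so lists of this size can lack a call without being unchanged. WNT and Notch targets had median log2 ratios of -0.22 and -0.2, with 5 of 15 and 3 of 10 ratios above 0. Between the 5 h and 11 h libraries with FGF, 5 WNT targets and 3 Notch targets were lower. The S phase genes had a median log2 ratio of 0.00 and the G2 and M phase genes one of -0.14.

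A set of 103 genes (0.722% of those analysed) was at least 2-fold higher at BMP4 11 h than in each of 0 h, 96 h and BMP4 5 h. Only 4 genes (0.0281%) were below all of these, and all were small RNA genes (Mir1188, Mir1258, Mir7647 and Snord92), named after their values were seen. Of the 103, 68 were under 5 CPM at 11 h and 35 were at or above it. Trp53cor1, the long noncoding RNA also known as lincRNA-p21 that lies beside Cdkn1a (chromosome 17, 29057474 to 29079126), was at 0.521 CPM at 0 h, 0.453 CPM at 96 h, 0.616 CPM at BMP4 5 h, 11.7 CPM at BMP4 11 h, 0.610 CPM with FGF8 at 5 h and 4.80 CPM with FGF4 at 11 h. It was 19.0-fold higher at 11 h of BMP4 than at 5 h (16.0 to 22.8), and both libraries labelled 11 h were above the 4 others. Cdkn1a, the p53-driven cell cycle inhibitor p21, was at 11.1 and 24.7 CPM, 2.22-fold higher (2.12 to 2.34), and Sesn2, a stress-induced p53 target, was at 8.2 and 27.0 CPM. These were the 3 called of 18 genes analysed in the p53 list, whose median log2 ratio was 0.06 and -0.04 when libraries were scaled by their total counts. Mdm2, the p53-driven regulator of p53, was 1.34-fold higher (1.30 to 1.38), and Ccng1 had a ratio of 0.987 (0.949 to 1.03). Pmaip1 and Btg2, also in the p53 list, had log2 ratios of -0.83 and -0.59 and were not called. Of the 18 ratios 10 were above 0. Between the 5 h and 11 h libraries with FGF, 1 gene of the list was higher and 2 were lower, and Cdkn1a and Sesn2 were not called.

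Genes of the integrated stress response were also in this set. Atf3, a stress-induced transcription factor (chromosome 1, 191170296 to 191183333), was at 1.07 CPM at 0 h, 5.01 CPM at 96 h, 2.41 CPM at BMP4 5 h, 16.9 CPM at BMP4 11 h, 2.07 CPM with FGF8 at 5 h and 18.8 CPM with FGF4 at 11 h. It was 6.98-fold higher at 11 h of BMP4 than at 5 h (6.37 to 7.68). Ppp1r15a, which restores translation after stress, was at 17.0 CPM at 5 h and 63.9 CPM at 11 h, 3.76-fold higher (3.62 to 3.90). Of the 19 genes analysed in the ATF4 and unfolded protein list, Atf3, Sesn2 and Trib3 were higher and 16 were not called, with Atf4 at 86.8 and 112.7 CPM. The promoter window of Atf3 is shown because it holds the word TGATGCAA, the core of the element bound by ATF and C/EBP factors, in capitals as read on the other strand.
Atf3 (chr1:191183334-191183583, minus strand): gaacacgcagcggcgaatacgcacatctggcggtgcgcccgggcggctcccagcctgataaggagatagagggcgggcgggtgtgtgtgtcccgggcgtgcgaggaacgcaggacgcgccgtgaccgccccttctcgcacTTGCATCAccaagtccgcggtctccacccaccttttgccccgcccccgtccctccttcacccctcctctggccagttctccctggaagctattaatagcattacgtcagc

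The word began 110 bases before the start of Atf3. Of the analysed genes with a RefSeq window, 80 of 10361 (0.772%) held it, and of the set of 103 it was in 2 of the 75 with a window (2.67%).

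In the list of immediate early and dissociation genes 6 of 19 were higher, with a median log2 ratio of 0.55. Klf4, a zinc finger factor that is induced early by stress and serum, was at 4.16 CPM at 5 h and 16.5 CPM at 11 h, 3.97-fold higher (3.69 to 4.29). Hspa1a, an inducible heat shock protein, was at 1.60 CPM at 0 h, 6.92 CPM at 96 h, 8.95 CPM at BMP4 5 h, 42.5 CPM at BMP4 11 h, 3.15 CPM with FGF8 at 5 h and 115.8 CPM with FGF4 at 11 h. Its near-identical copy Hspa1b followed it, and reads of the copies may have been shared. Junb and Klf6 had log2 ratios of 1.41 and 1.39. The classic early genes Fos, at 34.5 and 38.4 CPM, and Egr1, at 39.7 and 47.0 CPM, were not called, and both were already above the 11.3 and 15.7 CPM of 0 h at BMP4 5 h. Csrnp1, Cpeb2, Sgk1, Fosl2 and Hivep2, the other genes that the naming rule gave, were 2.93-fold to 5.25-fold higher.

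Genes of feeder and connective tissue cells were higher in 4 of 17 genes, with a median log2 ratio of 0.30 and 13 ratios above 0. Fn1, at 492 CPM at 5 h and 429 CPM at 11 h, and Fbln2, with a log2 ratio of -0.50, were lower but not called. Lum, a proteoglycan of connective tissue, was at 1.17 CPM at 5 h and 13.3 CPM at 11 h, 11.4-fold higher (10.0 to 13). Col1a1, a main collagen of fibroblasts, was at 31.2 and 105 CPM, 3.37-fold higher (3.28 to 3.47), against 190 CPM at 96 h. The summed level of the list was 935 CPM at 0 h, 1503 CPM at 96 h, 1000 CPM at BMP4 5 h, 1264 CPM at BMP4 11 h, 949 CPM with FGF8 at 5 h and 2270 CPM with FGF4 at 11 h, and no member was at 0. Myeloid genes summed to 4.14 CPM at BMP4 5 h and 9.76 CPM at BMP4 11 h, with 2 of 8 analysed higher and the defining marker Ptprc under 1 CPM in every library. Of the neural list 2 of 21 genes were higher, Olig2 with a log2 ratio of 1.49 and Neurog2 with 1.10. What part these cell types had in the differences of other lists was not tested.

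Most genes higher at 11 h lay between the levels of BMP4 5 h and untreated 96 h. Of the 395, 220 had a level at 11 h no higher than at 96 h, 175 were above 96 h, and 377 had a level at 5 h within 2-fold of 0 h. Of the 53 lower genes, 46 lay between 5 h and 96 h, and 25 were still at least 2-fold above 96 h. For 824 genes with at least a 2-fold difference between BMP4 5 h and untreated 96 h, the BMP4 11 h level lay at a median of 49.6% of the way, on the CPM scale, from 5 h (0%) to 96 h (100%). The lists differed in this share. Globins lay at a median of 93.1% (73.9% to 132.4% over 10 names), which is the value of the Hba-a1 and Hba-a2 copies. Haem synthesis genes and erythroid regulators lay at 63.2% (14 genes) and red cell membrane genes at 62.8% (11 genes). Lateral plate genes lay at 49.4% (12 genes), vessel genes at 48.0% (19), sarcomere genes at 33.9% (12), tailbud genes at 59.0% (16), presomitic genes at 54.2% (13) and posterior Hox genes at 53.1% (9). With FGF4 at 11 h the order of the lists was different. There the median was 90.7% over all such genes, 61.5% for globins and 60.5% for haem synthesis genes and erythroid regulators. Red cell membrane genes lay at 69.0% and vessel genes at 142.2% in that library. The members of a list share these libraries, and a difference between lists has no replicate check. Assigning values to gene names favoured levels between those of the untreated libraries, and its part in these positions and shares was not tested.

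**Figure D4:**
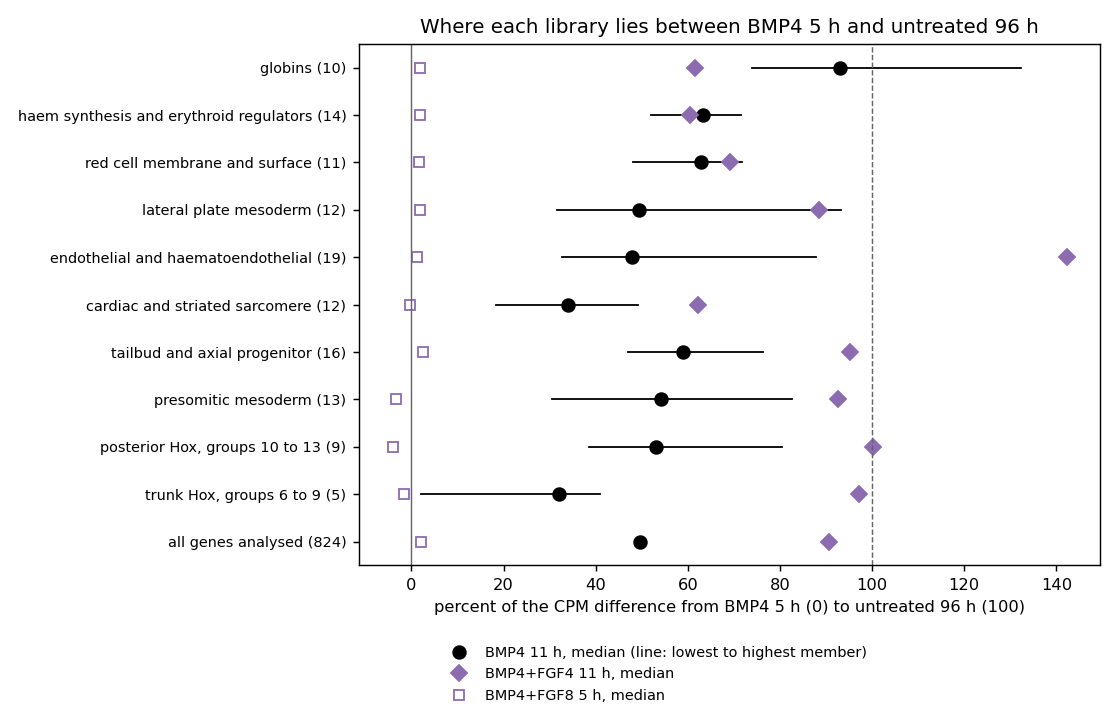
The x axis gives the level of a library in percent of the CPM difference from BMP4 5 h (0) to untreated 96 h (100), as list medians over the genes with at least a 2-fold difference (number in brackets), with lines from the lowest to the highest member for BMP4 11 h. BMP4 11 h lies between 33.9% and 63.2% for most lists shown, at 93.1% for globins and 32.0% for trunk Hox genes, while BMP4 with FGF8 at 5 h lies near 0.

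The libraries with FGF gave a second pair of the same durations that shares no library with the first, though FGF4 was used at 11 h and FGF8 at 5 h, so that the factor cannot be told apart from time. In that pair 689 genes (4.84% of 14225) were higher and 258 (1.81%) lower at 11 h. Of the 390 genes higher with BMP4 that had a value in this pair, 297 were also called higher (76.2% of the BMP4 calls and 43.1% of the calls with FGF). Of 52 lower genes 42 were also called lower (80.8% and 16.3%). The direction was the same for 371 of 390 and 49 of 52 genes, and the call was opposite for 5 and 1 genes. Over all genes the median log2 ratio in this pair was -0.04. Of the 103 genes above all other libraries without FGF, 99 of 100 with a value were higher with FGF4 at 11 h than with FGF8 at 5 h, and 58 were called there. With FGF4 at 11 h, 42 of the 103 were at least 2-fold above 0 h, 96 h and both 5 h libraries.

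Tailbud genes were lower in 15 of 20 genes in the pair with FGF, with a median log2 ratio of -2.14 beside -0.85 with BMP4. Posterior Hox genes were lower in 9 of 10, with medians of -2.33 and -0.72, and presomitic genes in 12 of 19, with medians of -1.81 and -0.81. Pax2, a kidney and intermediate mesoderm factor, was at 42.2 CPM at BMP4 5 h and 25.9 CPM at BMP4 11 h, against 47.0 CPM with FGF8 at 5 h and 1.65 CPM with FGF4 at 11 h. The globin median was smaller with FGF, at 3.72 beside 6.15 with BMP4. The summed level of the 10 globin names was 27.6 CPM at BMP4 5 h, 5056 CPM at BMP4 11 h, 159 CPM with FGF8 at 5 h and 3184 CPM with FGF4 at 11 h. Names of copies with almost the same counts each entered this sum in full, so it overstates the globin level. Vessel genes had medians of 2.4 and 1.32, and feeder and connective tissue genes medians of 1.36 and 0.30. These differences between the pairs have no replicate and were not tested.

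**Figure D5:**
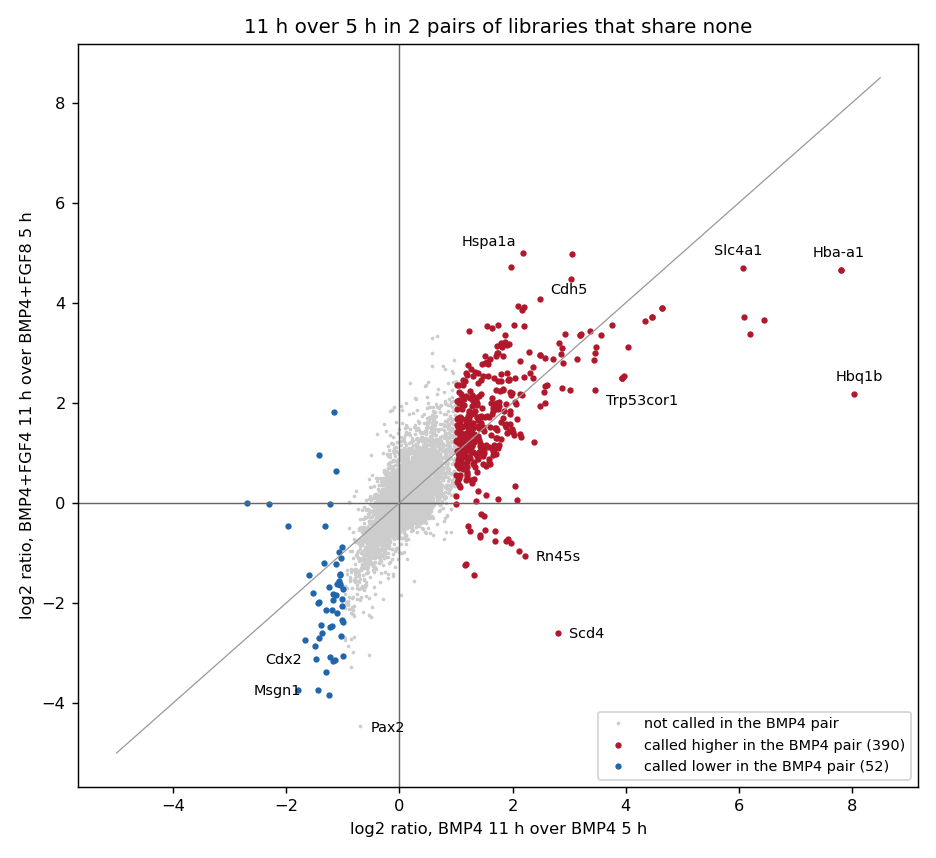
Each point is a gene, with its log2 ratio of BMP4 11 h over BMP4 5 h on the x axis and of BMP4 with FGF4 11 h over BMP4 with FGF8 5 h on the y axis. Most genes called with BMP4 keep their direction (371 of 390 higher and 49 of 52 lower), while Rn45s and Scd4 lie in the opposite quadrant.

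A fit of 11 h against 5 h over the 4 libraries with BMP4 (edgeR's quasi-likelihood test, 2 libraries of each duration, 2 residual degrees of freedom) takes the spread between libraries with and without FGF as its error. At an adjusted p (Benjamini-Hochberg) under 0.05 it called 463 genes higher (2.7% of 17171) and 77 lower (0.448%), and DESeq2 called 1645 and 835. Of the genes called with BMP4, 249 of those higher and 10 of those lower were also called by edgeR's fit in the same direction. Alas2 had an adjusted p of 0.00828 in edgeR's fit, Atf3 one of 0.00828, Slc4a1 one of 0.0311, Hand1 one of 0.0169, Smad7 one of 0.0268 and Trp53cor1 one of 0.0320. Hba-x, at 0.0614, Cdh5, at 0.0518, Nkx1-2, at 0.0573, Cdx2, at 0.0877, and Msgn1, at 0.177, did not pass in edgeR's fit. The count depends on each library. Without BMP4 5 h it was 9 higher and 0 lower (1992 genes at an unadjusted p under 0.05), without BMP4 with FGF8 5 h 32 and 0 (1810 genes), without BMP4 11 h 3492 and 3079, and without BMP4 with FGF4 11 h 2498 and 1393.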

How the data were processed

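The values are counts of reads per gene, deposited by the authors in 1 table without normalization. Cutadapt, DESeq, HTSeq, STAR 2.4.0e and the build mm10 are named in the submitters' processing notes. How reads were counted is not stated there, and 65.4% to 70.9% of the values from 1 to 20 are even.

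The table lists 19342 names, but the 4 growth factor columns hold more values than names and are out of register with them. Whole rows were put back in name order, with the 27 names that had become dates first and then left out. Each column was then placed by an order-preserving alignment to the untreated columns. It required the sum of a column and its partner to be above 10, a pattern found in the values and not stated by any source. Genes with a placement probability of at least 0.99 were kept, 17704 in both BMP4 columns. Aligning the BMP4 columns directly with each other paired the same rows for 99.91% of 15287 genes. That check took only securely placed genes above a minimum count in an untreated library. In simulated columns 99.9% of expressed genes were kept. Most simulated levels were set between or near those of the untreated libraries, so this share tells little of genes outside that range. This restored order is inferred, and levels near those of the untreated libraries help a gene to be placed.

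CPM used TMM effective library sizes (edgeR 4.0.16, R 4.3.3). Ratios were taken after adding 0.5 CPM, for genes that reached 1 CPM in 1 or more of the 6 libraries. Genes named are up to 15 per direction (12 above the other libraries) whose counting interval lies farthest from 1 among called genes whose mean reached 5 CPM, leaving out ribosomal RNA, pseudogene, small RNA, RIKEN and predicted symbols, and members of 31 gene lists; a few such genes are not reported here. The members and lists were chosen with earlier results of these data known, and some lists share members. The fit over 4 libraries used edgeR with filterByExpr, and DESeq2 1.42.0 was an alternative. The placement, the counting interval and the edgeR fit were tested on simulated data. Nothing says that the samples are separate cultures beyond their labels. Gene positions and promoter windows are from RefSeq, GRCm38.p6, the same build as mm10.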

Additional observations from a re-analysis of the deposited data

Results flagged for a closer look

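A call in the BMP4 pair was opposite to that in the pair with FGF for 5 higher genes (C130050O18Rik, Mir6993, Omd, Rn45s and Scd4) and for 1 lower gene, the 5 being named after their values were seen, and the difference between the pairs was not tested. Rn45s, the ribosomal RNA precursor, had a log2 ratio of 2.21 with BMP4 and -1.06 with FGF, at 221 CPM at BMP4 5 h, 1026 CPM at BMP4 11 h, 669 CPM with FGF8 at 5 h and 321 CPM with FGF4 at 11 h. Scd4, a fatty acid desaturase, had a log2 ratio of 2.81 with BMP4 and -2.59 with FGF. It was at 9.25 CPM at 0 h, 7.04 CPM at 96 h, 0.987 CPM at BMP4 5 h, 9.90 CPM at BMP4 11 h, 8.15 CPM with FGF8 at 5 h and 0.936 CPM with FGF4 at 11 h.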

How the results depend on the processing

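No paired analysis was possible because the conditions share only 1 replicate number. A block for added FGF in the edgeR fit over 4 libraries, chosen after seeing the data and leaving 1 residual degree of freedom, gave 585 higher and 111 lower genes against 463 and 77 without it. With 2 CPM added, the BMP4 pair had 152 genes higher and 21 lower, the pair with FGF 367 and 145, and 32 genes lay above and 2 below the other libraries. List medians also shrank, from 2.85 to 1.5 for red cell membrane, 1.71 to 1.15 for haem, 1.26 to 0.76 for sarcomere and 1.32 to 0.85 for vessel genes. With at least 5 CPM required, the counts were 219 and 31, 398 and 168, and 36 and 0. Under that minimum the median of the somite list changed sign, from 0.34 to -0.004, and the myeloid list kept no gene. Scaling by total counts moved the median of all genes to -0.105, with 343 higher genes kept and 53 lower. Other placements, size factors and a scaling without red cell genes left the BMP4 counts within 1.5 times. Alternatives chosen after seeing the data set BMP4 11 h over 0 h (524 higher, 76 lower) or over BMP4 with FGF8 5 h (371 and 68), and BMP4 with FGF4 11 h over BMP4 5 h (650 and 224). The fit over 4 libraries ranged from 9 to 3492 higher and 0 to 3079 lower genes without 1 library (1992 and 1810 genes at an unadjusted p under 0.05 in the edgeR fits with 0 lower), and DESeq2 gave 1645 and 835. The cause was not tested. Over the 6 libraries 3 counts correspond to 0.011 to 0.0167 CPM, so depth limits only the weakest genes.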
